A study of Mus musculus with 4 samples.

Results

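Nuclei of the late distal convoluted tubule and the connecting tubule were taken from 4 single-nucleus RNA libraries of mouse kidney by a gate on unique molecular identifiers (UMIs, each standing for 1 counted transcript molecule). A barcode passed with at least 200 genes, at most 10% mitochondrial UMIs, at least 3 UMIs of Calb1 and Slc8a1 together with at least 1 of Slc8a1, at most 3 of the proximal genes Slc34a1, Lrp2, Cubn and Slc27a2 together, and at most 1 of Slc12a1 and Aqp2 together. Slc12a3 was left free. The nuclei were thus selected on their own counts of these genes. The gate held 3064 of 39074 barcodes (7.84%), which were 659 in MRL/lpr mice at 6 weeks, 1018 in C57BL/6 mice at 6 weeks, 647 in MRL/lpr at 10 weeks and 740 in C57BL/6 at 10 weeks. Runs of 4 values below keep this order. All mice were female. MRL/lpr mice carry the lpr mutation of the death receptor gene Fas in every cell and develop lupus-like kidney disease, and no MRL group with intact Fas and no C57BL/6 group with the lpr mutation was among the samples. In a ratio of the strains, background, Fas and disease cannot be told apart. Each group is 1 library, and the labels do not say how many animals went into it, so differences lack a check by replicates and are given untested, with 95% intervals that cover counting error only.

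The late distal convoluted tubule and the connecting tubule join the thick ascending limb to the collecting duct and are the sites of regulated calcium reabsorption in the kidney. Calcium enters through the apical channel Trpv5, is carried by the binding proteins calbindin-D28k (Calb1) and calbindin-D9k (S100g), and leaves through the sodium-calcium exchanger Slc8a1 and the plasma membrane calcium pumps (Atp2b genes), under parathyroid hormone, vitamin D and klotho. Sodium enters with chloride through Slc12a3 in the distal convoluted tubule and through the epithelial sodium channel under aldosterone further on, and magnesium enters through Trpm6.

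Promoter windows of Trpv5 and S100g are shown because these genes encode the entry channel and the carrier of that path and were no part of the gate. The windows are the 250 bases before the RefSeq gene start (GRCm38.p6), 5′ to 3′ on the gene's strand, with matches on either strand in capitals. Searched were the TATA box TATAAA, and of the hexamers that nuclear receptors bind, the common form AGGTCA, a variant spelled AGTTCA, and as a further variant of it GGTTCA. The Trpv5 window is chr6:41680724-41680973, minus strand.
Trpv5: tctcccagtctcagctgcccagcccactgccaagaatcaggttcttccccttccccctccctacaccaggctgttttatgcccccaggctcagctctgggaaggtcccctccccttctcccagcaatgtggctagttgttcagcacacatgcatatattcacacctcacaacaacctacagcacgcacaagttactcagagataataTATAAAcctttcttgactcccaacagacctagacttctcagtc
The S100g window is chrX:162964600-162964849, minus strand.
S100g: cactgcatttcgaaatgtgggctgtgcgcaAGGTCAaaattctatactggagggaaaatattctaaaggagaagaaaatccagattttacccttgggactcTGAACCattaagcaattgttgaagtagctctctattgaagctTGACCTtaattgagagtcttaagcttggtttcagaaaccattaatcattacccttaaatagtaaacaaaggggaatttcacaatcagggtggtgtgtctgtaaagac
The Trpv5 window held 1 match, to TATAAA, whose first base lies 43 bases before the start. The S100g window held 3 matches, an AGGTCA 220 bases before the start, and on the opposite strand a GGTTCA and an AGGTCA that begin 149 and 107 bases before it. Such letters are common: of 32851 promoter windows of 250 bases, 14.0% held AGGTCA, 11.8% AGTTCA, 8.8% GGTTCA, 30.7% at least 1 of these 3, and 12.4% TATAAA. The matches are a description of the letters and not of binding.

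The 4 libraries held 6466973 to 7660682 UMIs. Gated nuclei were shallow, with medians of 546, 522, 487 and 520 UMIs, and their summed UMIs were 383139, 577673, 329220 and 409164. A gene with 0 UMIs could therefore stand at up to 7.83, 5.19, 9.11 and 7.33 CPM (UMIs per 1000000 UMIs of the gated nuclei), from the 3 UMIs that a count of 0 allows. Between 22.7 and 31.8% of gated nuclei held at least 1 UMI of the 4 proximal genes. Pairs of libraries shared 109 to 137 barcodes, at most 2 of them gated in both.

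The label was checked against markers that the gate did not use. S100g stood at 2289, 2934, 1932 and 4839 CPM, and Klk1, the tissue kallikrein of the connecting tubule, at 10466, 8835, 11302 and 11545 CPM. Ltc4s, the leukotriene C4 synthase, stood at 517, 618, 450 and 648 CPM. Trpv5, which defines this stretch of the tubule, was low at 99.2, 53.7, 191 and 161 CPM, from 38, 31, 63 and 66 UMIs. It had 0 UMIs in every library of the early distal convoluted tubule gate described below. In the principal cell gate, also described below, it stood at 0, 0, 109 and 28.1 CPM, so it set the gate apart less clearly from principal cells. Calb1 itself was detected in 61.0, 58.3, 55.0 and 63.6% of gated nuclei, so the rest entered on Slc8a1 alone. Calb1 was detected in 1.19 to 1.79% of nuclei in a proximal tubule gate of deeper nuclei, with medians of 765 to 878 UMIs. That gate allowed at most 1 UMI of Calb1, Slc8a1, Slc12a3, Slc12a1 and Aqp2 together. Nuclei with more free RNA of these genes were thus left out, so the share can understate free RNA.

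A minority of the gated nuclei carried markers of other cells. Neither Calb1 nor Slc12a3 was detected in 19.4, 17.1, 23.8 and 15.4%. At least 2 UMIs from the markers of intercalated cells, podocytes, endothelium, fibroblast and mural cells, macrophages or lymphocytes were found in 44, 96, 37 and 51 nuclei (6.68, 9.43, 5.72 and 6.89%). Ren1, which encodes renin of the juxtaglomerular cells, was the clearest case, with at least 2 UMIs in only 8, 13, 3 and 6 nuclei, none of which held a Calb1 UMI. These nuclei held 215 of 217, 310 of 315, 64 of 66 and 115 of 117 Ren1 UMIs of the gate. Principal cell markers were not part of the count of 44, 96, 37 and 51 nuclei, and no alternative setting left out nuclei by them. The 6 of them outside the gate rule summed to 1138, 834, 1233 and 814 CPM. In the early distal and principal cell gates described below they summed to 220 to 253 and 7382 to 8271 CPM. The 6 endothelial markers were all detected and summed to 271, 582, 204 and 396 CPM, lower in both MRL/lpr libraries. The 7 macrophage markers summed to 230, 279, 516 and 254 CPM, of which Cd74, an MHC class II chaperone, made up 175, 170, 440 and 186. Of the 6 lymphocyte markers Cd3e, Themis, Cd79a and Ms4a1 were at or near 0, with at most 2 UMIs in a library, while Skap1 had 19, 19, 7 and 12 UMIs and Ptprc, the pan-leukocyte CD45 gene, 8, 8, 5 and 4. The part of these nuclei in the results below was not tested beyond the values given with such nuclei left out.

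Other gates on the same libraries served for comparison: early distal convoluted tubule (219, 470, 223 and 641 nuclei), thick ascending limb (494, 471, 525 and 564), principal cells (149, 153, 162 and 256) and proximal tubule (4238, 3573, 4690 and 3739). Since Calb1 and Slc8a1 chose the nuclei, and other genes of the same nuclei move with them, these levels are a description. Of 4119 genes with at least 100 UMIs, 7 (0.170%) stood at least 2-fold over each of the 4 other gates in every library, and these were Calb1, Slc8a1, Ren1, S100g, Atp2b4, Kl and Clu. S100g lay 1.58 to 2.44 log2 units over the principal cell gate, the next highest, and 2.83 to 3.36 over the early distal gate. Atp2b4, a calcium pump, stood at 214, 229, 240 and 291 CPM, 1.36 to 1.91 log2 units over the early distal gate. Kl, which encodes klotho, the co-receptor of the hormone FGF23, stood at 1169, 1617, 1242 and 1735 CPM against 411 to 537 in the early distal gate. Clu, the chaperone clusterin, stood at 767, 781, 829 and 692 CPM. That these 3 genes were higher than in the other gates in all 4 libraries follows from the rule that chose them.

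The next genes by the same ranking were Vdr, the vitamin D receptor, Slc2a9, a urate transporter, the transcription factor gene Ebf1, the kinase gene Stk32a, Klk1, Ltc4s and Trabd2b. Vdr stood at 838, 1052, 990 and 726 CPM, between 0.83 and 1.22 log2 units over the early distal gate. Slc2a9 stood at 164, 445, 264 and 408 CPM, with 0 UMIs in the early distal gate of both MRL/lpr libraries. Klk1 was also high in the thick ascending limb gate, at 4962 to 7041 CPM. Tox3, a chromatin protein gene given as a marker, did not separate the gate from its upstream neighbour: it stood at 514, 708, 690 and 601 CPM, against 537, 680, 553 and 514 in the early distal gate. Genes of the sodium channel pointed downstream. Scnn1b, its beta subunit, stood at 405, 348, 516 and 403 CPM, above the early distal gate (16.3 to 65.7) and below the principal cell gate (782 to 1055). Hsd11b2, the enzyme that shields the aldosterone receptor from glucocorticoids, stood at 316, 308, 568 and 450 CPM against 1977 to 3078 in principal cells.

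**Figure D1:**
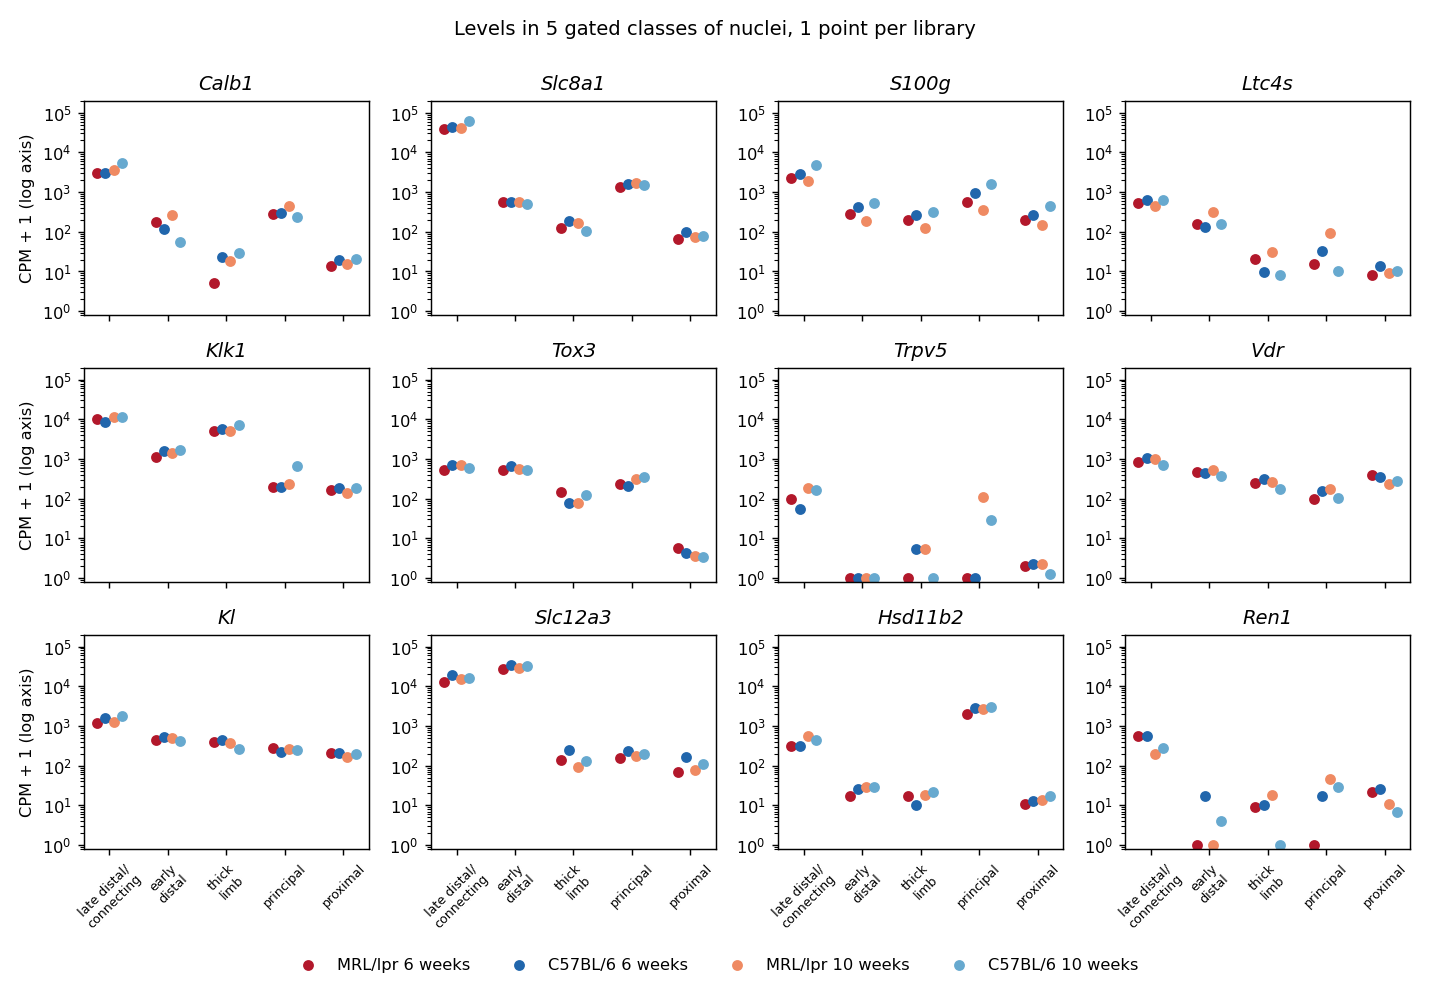
Levels of 12 genes (CPM + 1, log axis) in the late distal and connecting tubule gate and in 4 other gates (x axis), with 1 point per library and no replicates. Calb1 and Slc8a1 chose the nuclei. S100g, Kl and Ren1 are highest in the late distal and connecting tubule gate in all 4 libraries, while Tox3 reaches 514 to 680 CPM in the early distal gate too.

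At the edge of the gate, nuclei with exactly 3 UMIs of Calb1 and Slc8a1 numbered 63, 127, 80 and 57, and otherwise eligible nuclei with 2 UMIs numbered 111, 151, 110 and 139. Slc12a3 stood at 22412, 25193, 17517 and 25155 CPM just inside and at 19812, 21070, 14880 and 22543 CPM just outside. Both sides of the cut were thus rich in Slc12a3, and Ltc4s was at 70.7 to 256 CPM inside and 147 to 304 outside. The median gated nucleus lay well past it, with 17, 21, 13 and 35 UMIs of the 2 genes.

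The gate took a smaller share of the filtered barcodes in MRL/lpr at both ages. It held 7.04% (6.53 to 7.57) of MRL/lpr and 10.2% (9.58 to 10.8) of C57BL/6 barcodes at 6 weeks, a share ratio of 0.692 (0.626 to 0.764). At 10 weeks it held 6.82% (6.32 to 7.34) and 7.69% (7.17 to 8.25), a ratio of 0.886 (0.796 to 0.986). The C57BL/6 share was lower at 10 than at 6 weeks by a ratio of 0.757 (0.687 to 0.833), and in MRL/lpr the ratio was 0.969 (0.868 to 1.08). The early distal gate was further below C57BL/6, at share ratios of 0.498 (0.422 to 0.586) and 0.353 (0.301 to 0.411). By the same measure the thick ascending limb gate was at 1.12 (0.986 to 1.27) and 0.943 (0.836 to 1.06), and the principal cell gate, downstream, was at 1.04 (0.825 to 1.31) and 0.641 (0.523 to 0.784). The proximal gate was larger in MRL/lpr at both ages, with a ratio of 1.27, and its part in the other shares was not tested. With a minimum of 500 UMIs per barcode, the ratios of the late distal and connecting tubule gate were 0.600 and 0.673. Losses of nuclei in the preparation were not tested. The cut was a fixed number of UMIs of Calb1 and Slc8a1. In the gated nuclei Slc8a1 stood at 38714, 44690, 40216 and 63486 CPM and Calb1 at 3002, 2964, 3703 and 5357. The part of these levels in the shares was not tested.

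Slc12a3, the thiazide-sensitive cotransporter, divided the gate. It had at least 2 UMIs in 374, 639, 364 and 450 nuclei, or 56.8% (52.9 to 60.6), 62.8% (59.7 to 65.7), 56.3% (52.3 to 60.1) and 60.8% (57.2 to 64.3). It had 0 UMIs in 258, 326, 256 and 252 nuclei and exactly 1 in the others. Nuclei without it were shallower, with medians of 488, 466, 438.5 and 485.5 UMIs against 577, 549, 526 and 538. Thinned to 500 UMIs, with 234, 439, 355 and 330 shallower nuclei left out, 70.6, 77.4, 76.0 and 72.2% of nuclei held at least 1 Slc12a3 UMI, against 60.8, 68.0, 60.4 and 65.9% of all gated nuclei without thinning. Of proximal nuclei, 6.42, 15.7, 6.25 and 9.65% held an Slc12a3 UMI. Their gate allowed at most 1 UMI of Slc12a3 and the other distal gate genes together, so these shares can understate free RNA. The unthinned shares were lower in MRL/lpr at both ages, but the thinned share was higher in MRL/lpr at 10 weeks, so no order of the strains can be read from them. Calb1 was detected in 67.8, 63.9, 65.0 and 68.2% of nuclei with Slc12a3 and in 50.4, 46.6, 39.8 and 54.8% of those without.

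The sides of the split carried different genes in each library. Of 4119 genes, 63 (1.53%) were at least 2-fold higher on the Slc12a3 side and 69 (1.68%) on the other side in all 4 libraries, with counts under 3 set at 3 UMIs. Slc12a3 made the split, so its neighbours in expression are described without a test. On its side Egf, the precursor of epidermal growth factor, stood at 2467, 2433, 3095 and 2223 CPM against 109, 108, 69.4 and 38.4. Prkd1, a protein kinase, stood at 2026, 1489, 1796 and 1030 CPM against 87.6, 35.9, 52.0 and 23.0. Esrrb, a nuclear receptor, Sfrp1, a secreted Wnt antagonist, Uroc1, a histidine-degrading enzyme, Ank2, an ankyrin, the transporter gene Abca13 and Cwh43 completed the 8 leading genes. The pathways of salt and magnesium lay on this side as well. Trpm6 stood at 1382, 2229, 1388 and 2671 CPM against 197, 502, 217 and 683. Ppp1r1a, an inhibitor of protein phosphatase 1, lay 2.57 to 3.68 log2 units higher with Slc12a3, Klhl3 1.36 to 1.94 and Wnk1 1.15 to 1.78. Among transcription factors, chosen here after their values were seen, Lhx1 was 1.94 to 2.70 and Sall3 1.20 to 1.71 higher on this side.

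On the side without Slc12a3, the leading genes were Ren1, which came from the few renin nuclei described above, and Kif26b, a kinesin gene, followed by Hsd11b2, Aqp3 and Fxyd4. Hsd11b2 stood at 708, 849, 1370 and 1152 CPM against 56.2, 44.6, 54.7 and 50.2. Aqp2, which the gate capped at 1 UMI together with Slc12a1, stood at 817, 472, 893 and 683 CPM against 56.2, 44.6, 54.7 and 77.2. The part of principal cell nuclei or their RNA on this side was not tested. Aqp3, a basolateral water channel, stood at 299, 191, 442 and 146 CPM against 17.3, 7.87, 9.95 and 3.86, and Fxyd4, a regulator of the sodium pump, at 693, 424, 650 and 315 against 38.9, 36.7, 9.95 and 11.6. Scnn1b was 1.93 to 2.29 and Scnn1g, the gamma subunit, 2.05 to 2.66 log2 units higher without Slc12a3, whereas the alpha subunit gene Scnn1a did not follow them, with log2 ratios of Slc12a3 nuclei over the others of 0.28, -0.31, 0.07 and 0.45. Gpc5, a glypican, the scaffold gene Frmpd4 and Dkk2, a Wnt antagonist, completed the 8 leading genes. The transcription factor genes Gata2 (2.37 to 3.33 log2 units), Pax8 (1.04 to 1.57) and Zfhx3 (1.08 to 1.47) were also higher on this side.

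The calcium genes did not follow the split together. Trpv5 stood at 182, 108, 329 and 223 CPM without Slc12a3 and at 38.9, 31.5, 114 and 139 with it, higher without it in all 4 libraries. The calcium pump Atp2b2 followed the same pattern, at 146, 149, 165 and 115 CPM against 21.6, 28.8, 44.8 and 30.9. S100g was 1.10, 0.94, 0.05 and 0.29 log2 units lower with Slc12a3, so the sides were closer at 10 weeks. Calb1, a gate gene, was 0.59 to 1.52 log2 units higher with Slc12a3, while Slc8a1 and Kl stayed within 0.62 of 0. Tox3 (1.05 to 1.40) and Ltc4s (0.51 to 1.52) were higher with Slc12a3. Klk1 was higher without it, at 16320, 16998, 16188 and 22779 CPM against 6631, 4583, 7448 and 4901.

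**Figure D2:**
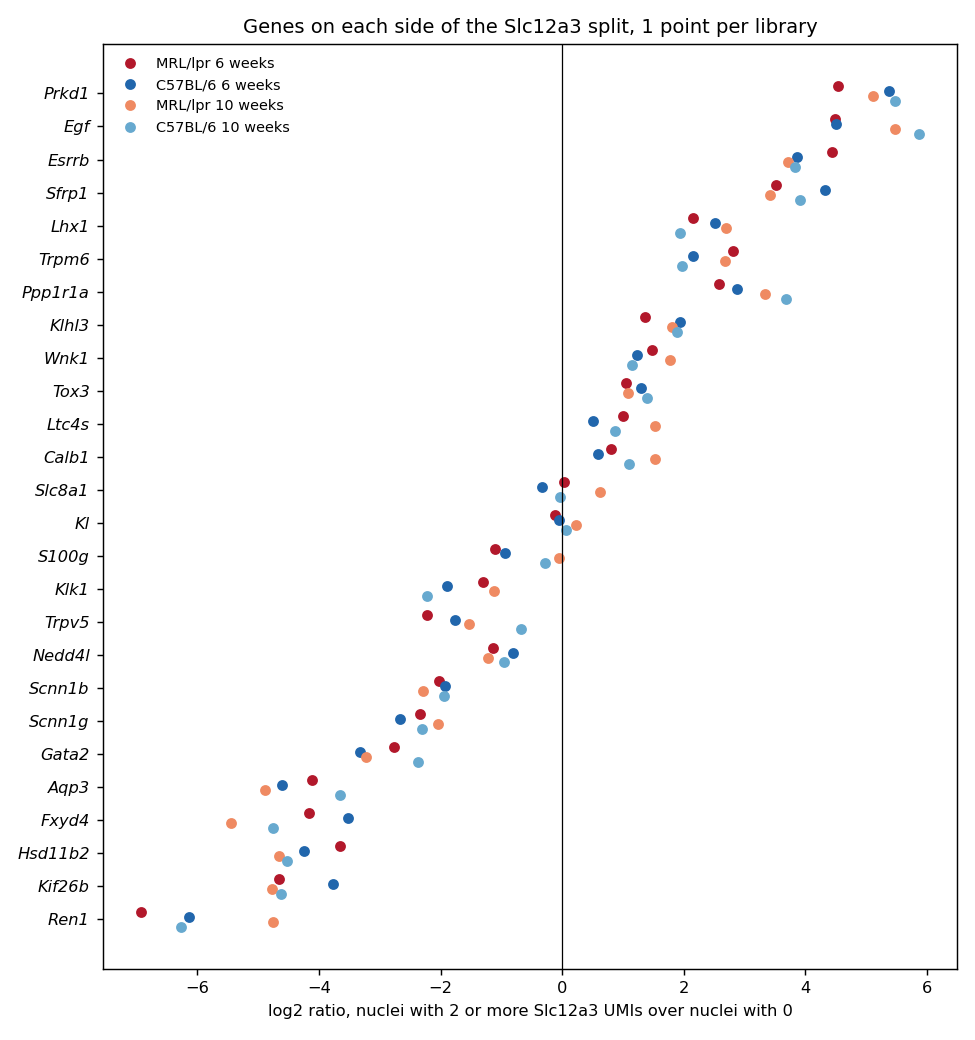
The log2 ratio of 26 genes (rows) between gated nuclei with 2 or more Slc12a3 UMIs and gated nuclei with 0, with 1 point per library and counts under 3 set at 3 UMIs. Egf and Prkd1 lie beyond 4 in all 4 libraries, Hsd11b2 lies below -3.6, and Slc8a1 and Kl lie within 0.62 of 0.

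For the strain difference, 6925 genes were compared, each with 50 or more UMIs in all 4 libraries together. MRL/lpr was at least 2-fold over C57BL/6 at both ages for 76 genes (1.10%) and at least 2-fold under it at both ages for 97 (1.40%), which makes 173 (2.50%). A further 15 (0.217%) lay 2-fold to opposite sides at the 2 ages, which share no library. The median log2 ratio of all these genes was -0.03 at 6 weeks and 0.01 at 10 weeks. A gene can be lower because fewer of the gated nuclei express it or because each holds less, and the summed counts do not tell these apart. Within nuclei with 2 or more Slc12a3 UMIs, 46 (0.928%) of 4958 genes were 2-fold higher and 68 (1.37%) lower at both ages, and within nuclei with 0, 34 (1.26%) and 32 (1.18%) of 2701. The number of lower genes in the whole gate was 61 with a minimum of 500 UMIs per barcode and 60 with a Calb1 UMI required, and the counts were 190 and 239 among genes with at least 20 UMIs and 38 and 45 among those with at least 100.

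Of the calcium transport genes 14 of 21 were compared, and apart from the 2 gate genes none of 12 was 2-fold higher or lower at both ages, against 2.50% of all genes. The list's median log2 ratios were -0.10 and -0.04. Trpv5 stood at 99.2 CPM in MRL/lpr and 53.7 in C57BL/6 at 6 weeks, 1.85-fold higher (1.12 to 3.07), and at 191 and 161 at 10 weeks, 1.19-fold higher (0.826 to 1.70), an interval that includes equality. Over the alternative settings its log2 ratio at 10 weeks ranged from -0.20 to 0.26. In MRL/lpr S100g was 1.28-fold (1.18 to 1.39) lower at 6 weeks, and at 10 weeks it was 2.50-fold (2.29 to 2.74) lower, where the C57BL/6 library was the highest of the 4. S100g was lower in MRL/lpr by a like amount in the proximal gate, at 193, 267, 150 and 442 CPM (log2 ratios -0.47 and -1.56). The part of free RNA was not tested. The calcium pumps Atp2b1 and Atp2b4 lay within 0.43 log2 units of equality at both ages.

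Receptors of the hormones that act on this segment were less than 2-fold apart. Pth1r, the parathyroid hormone receptor, stood at 164, 242, 276 and 391 CPM, in MRL/lpr 1.47-fold lower (1.09 to 2.02) at 6 weeks and 1.41-fold (1.09 to 1.85) at 10 weeks. Kl was 1.38-fold lower (1.23 to 1.55) and 1.40-fold lower (1.24 to 1.58). Both genes were thus lower in MRL/lpr at each age, by less than 2-fold. Vdr changed sides, 1.26-fold lower (1.10 to 1.44) at 6 weeks and 1.36-fold higher (1.16 to 1.60) at 10 weeks. Casr, the calcium-sensing receptor, had 36, 53, 26 and 28 UMIs and log2 ratios of 0.03 and 0.21. Trpv6, the related calcium channel, had 3, 7, 5 and 8 UMIs and was too sparse to compare.

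The genes of sodium chloride cotransport and its WNK kinase control lay on the lower side in MRL/lpr. Of 17 compared, 12 were lower at both ages by any amount, against 30.5% of all genes, and 1 was higher, against 28.4%. The median log2 ratios of the list were -0.26 and -0.38, beside -0.03 and 0.01 for all genes, and only Ppp1r1a was 2-fold lower at both ages. Ppp1r1a stood at 175, 679, 170 and 726 CPM, 3.88-fold lower (2.99 to 5.11) at 6 weeks and 4.27-fold lower (3.20 to 5.78) at 10 weeks. Both MRL/lpr libraries were far below both C57BL/6 libraries, with 67 and 56 UMIs against 392 and 297. Klhl3, the substrate adaptor through which WNK kinases are degraded, stood at 916, 1613, 908 and 1725 CPM, 1.76-fold lower (1.56 to 2.00) and 1.90-fold lower (1.66 to 2.18). The kinase genes Wnk1 and Wnk4 were 1.34-fold (1.27 to 1.41) and 1.56-fold (1.34 to 1.82) lower at 6 weeks, and 1.30-fold (1.23 to 1.38) and 1.36-fold (1.14 to 1.62) lower at 10 weeks. Slc12a3 stood at 13079, 18976, 15054 and 16382 CPM, 1.45-fold lower at 6 weeks and 1.09-fold lower (1.05 to 1.13) at 10 weeks, where its log2 ratio ranged from -0.15 to 0.06 over the alternative settings.

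Within nuclei with Slc12a3, which holds the split constant, Ppp1r1a was still lower in MRL/lpr by 1.89 and 2.04 log2 units and Klhl3 by 0.85 and 0.92. On the side without it Ppp1r1a had only 6, 22, 3 and 11 UMIs and Klhl3 was lower by 0.27 and 0.84. Ppp1r1a was also lower in MRL/lpr in the early distal gate (log2 ratios -1.30 and -1.57) and the thick ascending limb gate (-1.58 and -1.43), so its difference was not particular to these nuclei.

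Among the magnesium genes Trpm6, the apical magnesium channel, stood at 919, 1643, 942 and 1950 CPM. It was 1.79-fold lower (1.58 to 2.03) in MRL/lpr at 6 weeks and 2.07-fold lower (1.81 to 2.37) at 10 weeks. In the early distal gate, where Trpm6 was also abundant, the log2 ratios were -0.30 and 0.07, against -0.84 and -1.05 here, and in proximal nuclei, at 4.50 to 11.2 CPM, they were -1.07 and -0.96. It was lower on both sides of the split, by 0.69 and 0.94 log2 units with Slc12a3 and by 1.35 and 1.66 without. Without the nuclei that carried markers of other cells its log2 ratios were -0.88 and -1.06. The related Trpm7 showed little difference (-0.01 and -0.08), and Egf was at 1532, 1641, 1914 and 1422 CPM (-0.10 and 0.43), with a ratio at 6 weeks that ranged from -1.11 to -0.02 over the alternative settings.

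Genes of aldosterone action and the sodium channel were split in direction. Of 18 compared, none was 2-fold apart at both ages, against 2.50% of all genes, and 7 were higher and 7 lower at both ages by any amount, against 28.4% and 30.5%, with medians of -0.06 and 0.03. Nedd4l, a ubiquitin ligase that removes the sodium channel from the membrane, stood at 950, 566, 954 and 657 CPM and was 1.68-fold higher (1.44 to 1.95) and 1.45-fold higher (1.23 to 1.71) in MRL/lpr. Sgk1, the aldosterone-induced kinase that restrains it, stood at 78.3, 154, 36.4 and 66.0 CPM and was 1.97-fold lower (1.29 to 3.08) and 1.81-fold lower (0.887 to 3.92), the latter from 12 and 27 UMIs. The receptor gene Nr3c2 was at 1253, 1002, 1397 and 1290 CPM (0.32 and 0.11). The channel subunits parted at 6 weeks, with Scnn1a 1.49-fold lower (1.19 to 1.87) and Scnn1g 1.57-fold higher (1.25 to 1.97), and lay within 0.36 log2 units of equality at 10 weeks.

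**Figure D3:**
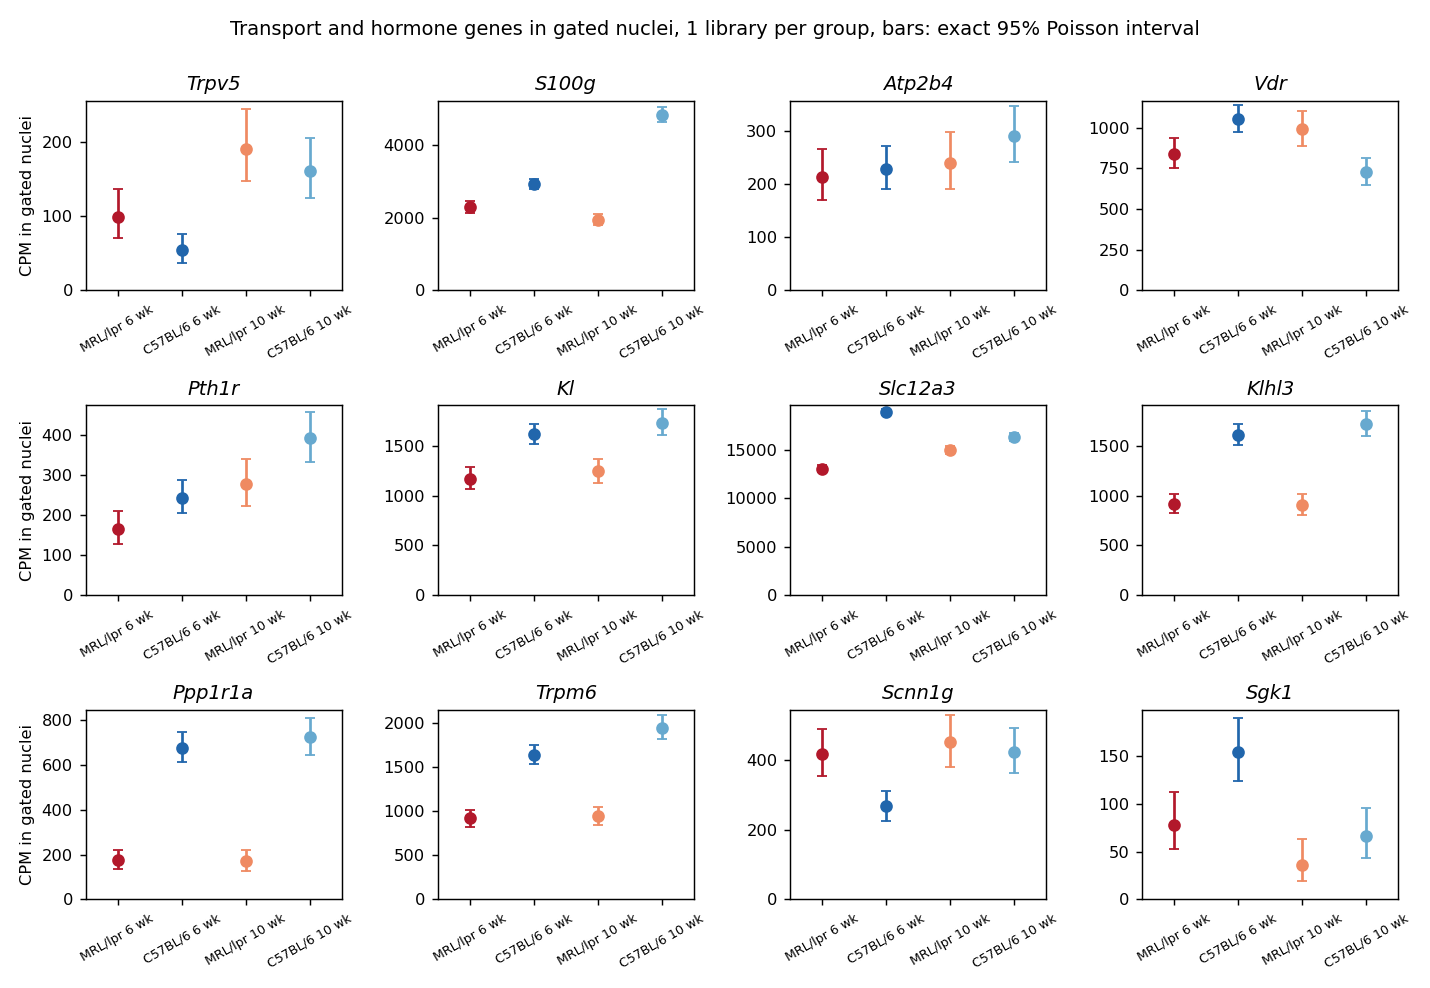
CPM of 12 transport and hormone genes in gated nuclei, with 1 point per library and bars for the exact 95% Poisson interval. For Ppp1r1a, Klhl3, Trpm6 and Kl both MRL/lpr libraries lie below both C57BL/6 libraries, and S100g is highest in C57BL/6 at 10 weeks, at 4839 CPM.

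Among all genes the largest strain differences lay outside the transport lists. Of the 76 higher genes, 62 had a level in the gate at least as high as in the proximal gate, and of the 97 lower genes 77 did. Colec12, a collectin scavenger receptor, had 4033, 26, 2859 and 10 UMIs, 234-fold higher (159 to 358) in MRL/lpr at 6 weeks and 355-fold higher (193 to 742) at 10 weeks, and proximal nuclei held it at 6111, 39.9, 4791 and 9.35 CPM. Greb1, a hormone-regulated gene, had 129, 1, 106 and 2 UMIs, and in the proximal gate at most 2.12 CPM. Rims2, a synaptic vesicle protein gene, had 99, 6, 104 and 7 UMIs. Kcnj2, an inward rectifier potassium channel gene, counted 19, 0, 44 and 1 times, was at least 9.55-fold higher at 6 weeks. Both MRL/lpr libraries exceeded both C57BL/6 libraries for each of these genes.

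The other named genes higher in MRL/lpr were Stam2, of endosomal sorting, Epb41l3, a cytoskeletal linker, Bbs9, a ciliary BBSome gene, Dynlt1b, a dynein light chain, Thsd7b, Lpin2, a phosphatidate phosphatase, Fam227a and Plce1, a phospholipase. Epb41l3 stood at 770, 126, 939 and 144 CPM, 6.09-fold (4.70 to 7.98) and 6.51-fold (4.91 to 8.75) higher. Lpin2 stood at 496, 121, 583 and 127 CPM, 4.09-fold and 4.59-fold (3.36 to 6.36) higher. In proximal nuclei the log2 ratios of these 2 genes were smaller or of the other sign, with -0.36 and 0.52 for Epb41l3 and -0.03 and -0.48 for Lpin2, while the early distal gate had them higher in MRL/lpr (2.70 and 3.27, 1.35 and 1.44), as did the principal cell gate (1.98 and 1.75, 0.99 and 0.78). The Lpin2 intervals in the principal cell gate, 0.00 to 2.06 and -0.02 to 1.58, reached equality. In the thick ascending limb gate Epb41l3 was at 0.02 (-0.82 to 0.85) and 1.31 (0.59 to 2.06), and Lpin2 at 0.65 (-0.21 to 1.54) and 0.48 (-0.24 to 1.20). Thsd7b was sparse, at 22, 8, 22 and 4 UMIs, and at most 2.11 CPM in proximal nuclei. Dynlt1b belongs to a set of near-identical copies, so its counts are uncertain.

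Genes lower in MRL/lpr were mostly low in level. Rpgrip1, a ciliary protein gene, Sft2d1, Wdr89 and the antisense RNA Ube4bos1 had at most 2 UMIs in each MRL/lpr library, against 14 to 62 in each C57BL/6 library. Drc3, of the dynein regulatory complex, had 1, 84, 3 and 25 UMIs. Rnaset2b, a ribonuclease with a near-identical copy, had 7, 141, 7 and 70 UMIs, and Pttg1, which encodes securin, 13, 104, 8 and 69. Rab26os, Cntd1 and Atp4a, a proton pump subunit with 5, 49, 11 and 54 UMIs, completed the named genes with Colgalt2 and Glt1d1. Colgalt2, a collagen galactosyltransferase, stood at 10.4, 79.6, 15.2 and 132 CPM and was 7.63-fold (2.79 to 29.2) and 8.69-fold (3.50 to 27.8) lower. In proximal nuclei it lay the other way, higher in MRL/lpr by 1.06 and 1.24 log2 units, while in the thick ascending limb gate it was lower (-1.94 and -1.98). Glt1d1, a glycosyltransferase gene, did the same, with -2.87 and -2.56 in the gate and 1.13 and 1.74 in proximal nuclei. Strand use in the counting is not given in the sources used here, so antisense genes and their partners cannot be told apart.

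**Figure D4:**
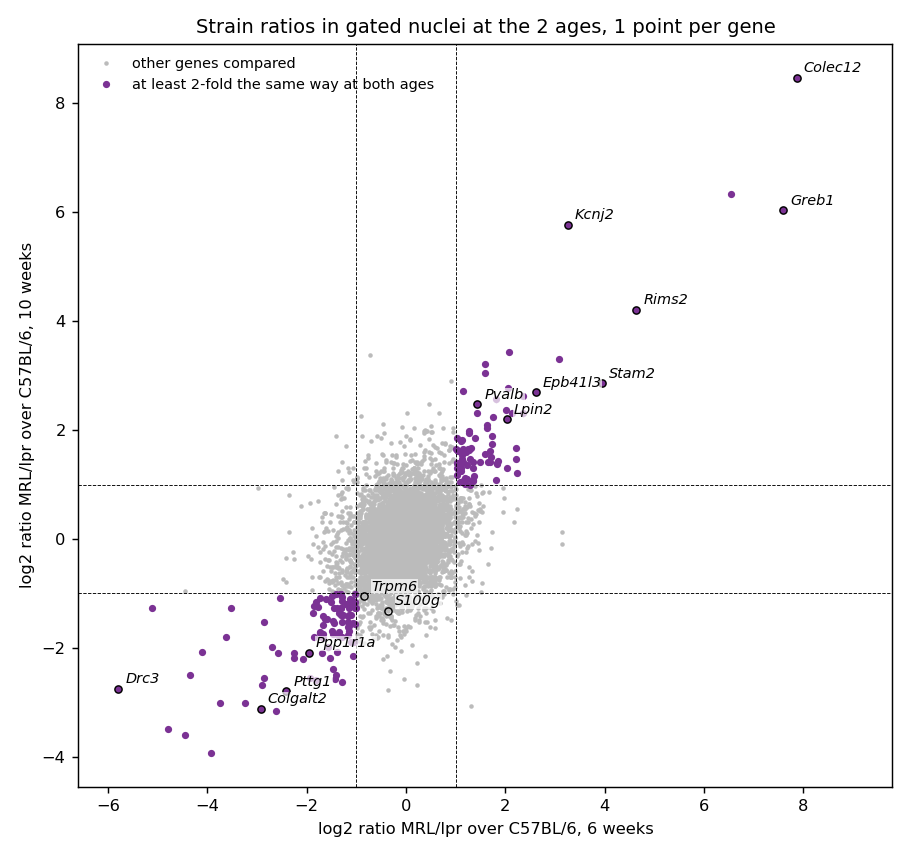
Each point is 1 of 6925 genes, placed by its log2 strain ratio, MRL/lpr over C57BL/6, at 6 weeks (x axis) and 10 weeks (y axis) in gated nuclei, and purple points are at least 2-fold apart the same way at both ages. Colec12, Greb1, Kcnj2 and Rims2 lie far to the upper right (Kcnj2 at 6 weeks as a bound) and Drc3 to the lower left.

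**Figure D5:**
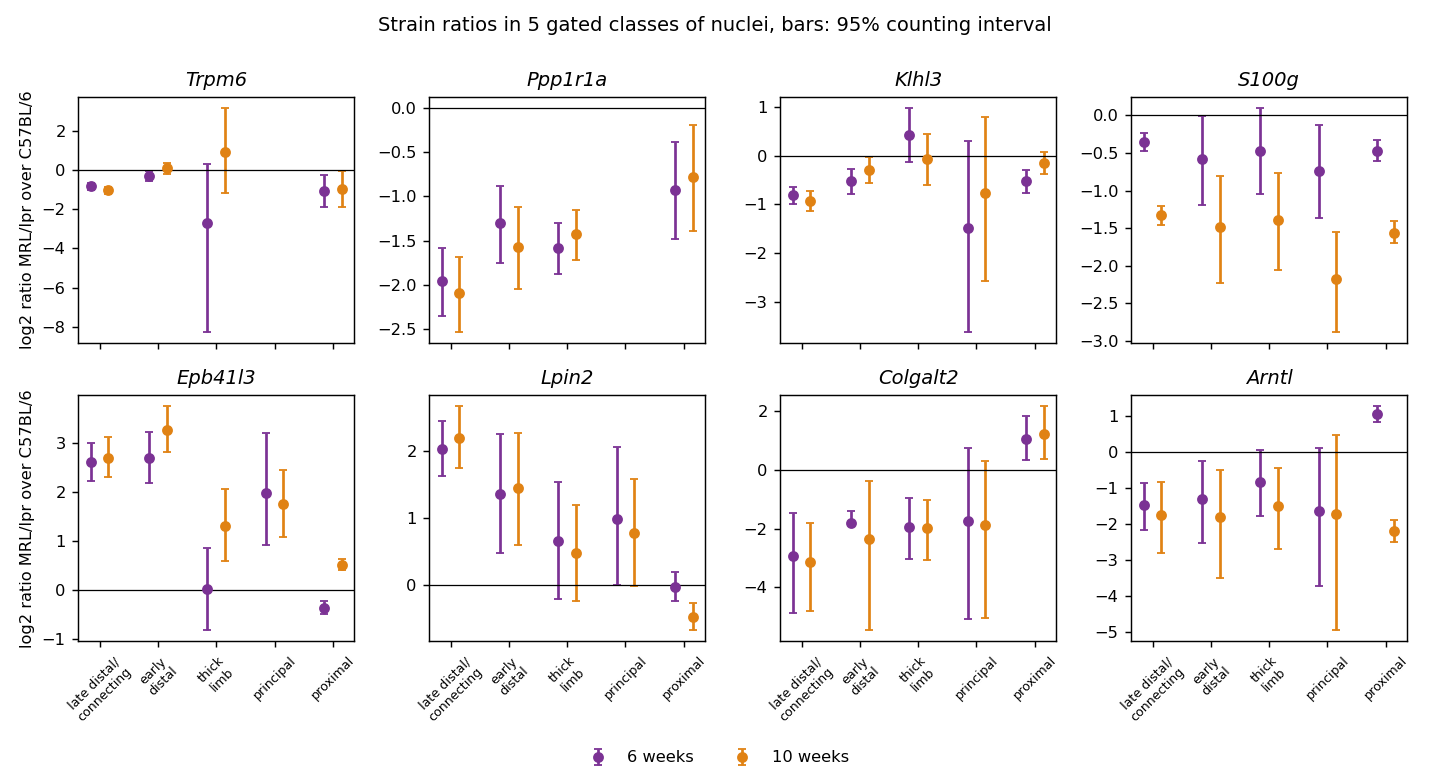
The log2 strain ratio of 8 genes at 6 and 10 weeks in 5 gates (x axis), with bars for 95% counting intervals, a bar on 1 side where the MRL/lpr count was 0 and the ratio is a bound, and no point where both counts were 3 or fewer. In the late distal and connecting tubule gate Epb41l3 is at 2.61 and 2.70 and Lpin2 at 2.03 and 2.20, against -0.36 and 0.52 and -0.03 and -0.48 in the proximal gate, where Colgalt2 has the opposite sign, and S100g is lower in MRL/lpr in each gate.

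Age left fewer differences that both strains shared. From 6 to 10 weeks 8 genes (0.116%) were at least 2-fold higher in both strains and 13 (0.188%) at least 2-fold lower, and for 17 (0.245%) the strains went 2-fold to opposite sides. The counts moved with the minimum of UMIs: 0 and 4 with at least 100 UMIs per gene, and 38 and 89 with at least 20. Median log2 ratios of all genes were -0.03 in MRL/lpr and -0.07 in C57BL/6. Etv4, a transcription factor gene that was all but missing in proximal nuclei (at most 1.51 CPM), had 74, 66, 26 and 15 UMIs, 2.45-fold lower (1.55 to 3.98) in MRL/lpr and 3.12-fold lower (1.76 to 5.88) in C57BL/6. Both libraries at 10 weeks were below both at 6 weeks. Ccdc117 had 40, 54, 14 and 19 UMIs, Pdk3, a pyruvate dehydrogenase kinase, 21, 22, 6 and 4, and Tsen34, Rmnd5b, Atp1b3 and Prpf3 were the other lower genes. Grip2, a scaffold protein gene, had 7, 4, 25 and 23 UMIs, 4.16-fold higher (1.75 to 11.4) and 8.12-fold higher (2.77 to 32.3). Slc25a45, Ssbp4, Gemin8, Snapc4 and Rab17 were the other higher genes, with 4 to 34 UMIs in each library. The value of Gemin8 in C57BL/6 turned to -0.15 with a minimum of 500 UMIs per barcode.

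Calcium genes were among those that were higher at 10 weeks. Trpv5 was 1.93-fold higher (1.27 to 2.97) in MRL/lpr and 3.01-fold higher (1.93 to 4.77) in C57BL/6. Pth1r was 1.68-fold higher (1.21 to 2.36) and 1.61-fold higher (1.28 to 2.04). S100g parted by strain, 1.18-fold lower (1.07 to 1.31) in MRL/lpr and 1.65-fold higher (1.54 to 1.76) in C57BL/6. Of the 12 calcium genes 5 were higher and 2 lower in both strains, against 20.7% and 30.2% of all genes, with medians of 0.14 and 0.08. Hsd11b2 was higher at 10 weeks, 1.80-fold (1.42 to 2.28) in MRL/lpr and 1.46-fold (1.18 to 1.80) in C57BL/6. Sgk1 was the only gene of the aldosterone list that was 2-fold lower in both strains, by log2 ratios of -1.10 in MRL/lpr and -1.22 in C57BL/6, from 12 and 27 UMIs at 10 weeks.

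In the remaining lists few genes were 2-fold apart between strains, as among all genes (2.50%). Of 20 transcription factor genes compared none was 2-fold apart at both ages, a count near that background, and Mecom (4254, 3602, 4441 and 3959 CPM), Esrrg (3722, 3964, 3624 and 4607) and Tfcp2l1 (1031, 1004, 1115 and 841), the most abundant of them, lay within 0.41 log2 units of equality. The 13 junction genes had none 2-fold apart either, again near the background, with Magi1 at 0.07 and -0.06, Cdh16 at -0.24 and -0.22 and Cdh1 at 0.26 and 0.25. Of 9 leukotriene and prostaglandin enzyme genes 5 were lower at both ages and none higher, against 30.5% and 28.4% of all genes, and Ggt1, which cleaves leukotriene C4, was 2.46-fold (1.42 to 4.48) and 2.01-fold (1.14 to 3.69) lower from 17, 63, 18 and 45 UMIs. The part of free RNA in the Ggt1 counts was not tested. Ltc4s was 1.20-fold (1.00 to 1.43) and 1.44-fold (1.17 to 1.77) lower in MRL/lpr. Only 4 of 24 genes of interferon gamma response and antigen processing and 4 of 20 of type I interferon reached 50 UMIs, none 2-fold apart at both ages, so differences in the others were not detectable at this depth. Of 7 injury genes Spp1, which encodes osteopontin, was higher in MRL/lpr by 1.64-fold (1.46 to 1.84) at 6 weeks and 1.24-fold (1.11 to 1.39) at 10 weeks, and none was 2-fold apart.

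Genes of energy production and protein synthesis leaned lower in MRL/lpr, and also at 10 weeks in both strains. Among 47 nuclear genes of the respiratory chain, 32 lay lower at both ages and 2 higher, against 30.5% and 28.4% of all genes, with medians of -0.24 at both ages. Of 79 ribosomal protein genes 46 were lower and 5 higher, with medians of -0.14 and -0.52. The 8 mitochondrially encoded transcripts compared had medians of -0.13 and -0.94, and 6 were lower at both ages. In nuclei such transcripts come largely from outside the nucleus, and the part of that material in these values was not tested. Nor was the part of RNA from outside the nucleus in the respiratory chain and ribosomal protein values. The MRL/lpr library at 10 weeks was the lowest of the 4 for each of these 8 transcripts. From 6 to 10 weeks, 32 of the 47 respiratory chain genes were lower in both strains and 3 higher. Of the 79 ribosomal protein genes 57 were lower and 2 higher, against 30.2% and 20.7% of all genes. These lists thus leaned lower with age as well as with strain.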

How the data were processed

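Nuclei of female MRL/lpr and C57BL/6 kidneys were isolated on an iodixanol gradient and sequenced with 10x 3′ chemistry, per the labels' protocols. The deposited files hold, for each library, UMI counts per gene and barcode that the authors made with Cell Ranger. Per the file headers its version is 5.0.0, while the submitters' processing notes give 3.1.0. For the barcode rule, genome build, and use of introns and strand: not given in the sources used here. Of 25636 listed genes, 27 symbols were shared by several IDs and left out of lists. Members and gene lists were chosen with earlier results of these data known.

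After the filters (200 genes, 10% mitochondrial UMIs) counts were summed over gated nuclei per library and scaled to CPM. Ratios carry conditional exact binomial intervals, levels exact Poisson intervals and shares exact Clopper-Pearson intervals, all at 95%. Genes with at least 50 UMIs were compared between libraries, and genes with at least 100 for other gates and the split. A 0 was set at 3 UMIs. No test was run, each group being 1 library. With 4 libraries an exact sign-flip test of the gate against its neighbours cannot go below 0.125.

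Named strain genes were the 12 each way, and age genes up to 8 each way, with the largest smaller log2 ratio among genes at least as high as in the proximal gate, without unnamed gene models, mitochondrial and ribosomal protein genes. From lists, abundant members and those 2-fold apart were named, and the calcium, salt and aldosterone lists freely. Neighbour and split genes were ranked by the smallest ratio over the 4 libraries. Doublets were kept, and in an alternative Scrublet (scanpy 1.11.5) marked 35, 68, 17 and 32 gated nuclei, by the highest scores in MRL/lpr at 6 weeks, where its automatic threshold marked 0. Other alternatives changed the gate's limits, the UMI minimum, the prior and the scaling (TMM factors of edgeR 4.0.16). Promoters are from RefSeq. Values of some single genes are not reported here. Tools were Python 3.11.15, numpy 2.4.6, scipy 1.17.1, pandas 2.3.3 and R 4.3.3.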

Additional observations from a re-analysis of the deposited data

Results flagged for a closer look

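Genes are given here because their ratios were at least 2-fold in opposite directions in comparisons that share no library. These differences between ages or strains were not tested, since each group is 1 library. Nr1d2, a nuclear receptor gene of the clock, had log2 strain ratios of -1.28 at 6 weeks and 1.09 at 10 weeks, from 6, 22, 24 and 14 UMIs. Per2, a clock repressor gene, had age ratios of -1.05 in MRL/lpr and 1.05 in C57BL/6, from 53, 32, 22 and 47 UMIs. The labels give no time of day for the collection, so its part was not tested. Dkk2, the Wnt antagonist gene of the side without Slc12a3, had 21, 82, 38 and 20 UMIs, with strain ratios of -1.37 and 1.24 and age ratios of 1.07 in MRL/lpr and -1.54 in C57BL/6. Cgn, a tight junction gene, had strain ratios of 1.21 and -1.03, from 23, 15, 11 and 28 UMIs.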

How the results depend on the processing

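No paired analysis was possible because each group has 1 library. A minimum of 500 UMIs per barcode moved the share ratio to 0.600 (6 weeks) and 0.673 (10 weeks), and the ratio at 10 weeks moved to 0.766 with a Calb1 UMI required and 0.726 with a minimum of 10 UMIs over Calb1 and Slc8a1. It stayed below 1 in each setting. The share of nuclei with 2 or more Slc12a3 UMIs moved to 68.2, 73.7, 72.6 and 68.0% with the 500 UMI minimum and to 63.9, 69.9, 68.3 and 67.3% with Calb1 required. With the minimum of 10 it moved to 59.3% in C57BL/6 at 6 weeks. Thinned to 500 UMIs, 70.6, 77.4, 76.0 and 72.2% held at least 1. Among strain counts, higher genes numbered 190 with at least 20 and 38 with at least 100 UMIs. Lower genes numbered 239 and 45 there, 61 with the 500 UMI minimum and 60 with Calb1 required. Age counts, 8 higher and 13 lower in the main setting, were 38 and 89 with at least 20 UMIs and 0 and 4 with at least 100. Higher age genes numbered 4 with 0 proximal UMIs, 1 with the 500 UMI minimum, 4 with Calb1 required and 4 with the minimum of 10, and lower ones 8 without Scrublet doublets and 8 with TMM factors. With the 500 UMI minimum, Gemin8 turned to -0.15 in C57BL/6 and Ren1 to 0.20 in MRL/lpr for age. Of 9307 gene ratios recomputed, 167 left their counting interval, and 2 that were at least 2-fold in the main setting changed sign. Sign changes of smaller ratios were not counted as turned. The 9307 include the settings with at least 20 and at least 100 UMIs, which cannot alter the ratio of a gene. Of 416 list medians 6 moved. Without the nuclei with markers of other cells 171 genes were 2-fold apart at both ages, 139 of them among the 173 of the main setting. Of these 173, 166 stayed with a mitochondrial limit of 2%, 142 without Scrublet doublets and 123 with a minimum of 5 UMIs over Calb1 and Slc8a1. Fewer stayed in other settings: 99 with 0 proximal UMIs, 94 with the minimum of 10, 82 with the 500 UMI minimum and 72 with Calb1 required. Calb1 required, markers of other cells left out and the minimum of 10 were chosen after the data were seen. Depth limits genes under about 50 UMIs.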

Other observations

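The gated nuclei held 26, 109, 12 and 50 UMIs of Arntl (BMAL1, an activator of the clock), 2.78-fold lower (1.80 to 4.45) in MRL/lpr at 6 weeks and 3.35-fold lower (1.76 to 6.92) at 10 weeks. It was lower in MRL/lpr at both ages in the early distal, thick ascending limb and principal cell gates too, but in proximal nuclei its log2 ratios were 1.06 and -2.19. Usp2, a clock-controlled deubiquitinase gene, stood at 389, 460, 222 and 462 CPM, lowest in MRL/lpr at 10 weeks.

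Pvalb, the calcium-binding parvalbumin of the early distal convoluted tubule, had 108, 60, 67 and 15 UMIs, with log2 strain ratios of 1.44 and 2.47. Nearly all of it lay in nuclei with Slc12a3, with 103, 57, 66 and 15 UMIs. In the early distal gate its strain ratios were 2.65 and 3.56. Stc1, which encodes the hormone stanniocalcin, had 22, 5, 14 and 2 UMIs, too few for the comparison. Slc26a4, the anion exchanger pendrin, had 14, 10, 34 and 8 UMIs in nuclei with 2 or more Slc12a3 UMIs and 12, 26, 6 and 17 in nuclei without Slc12a3. Log2 ratios of the first over the second were -0.53, -2.57, 1.70 and -2.08, so only MRL/lpr at 10 weeks stood apart. Slc4a9, another intercalated cell marker, had ratios of -0.87, -1.37, 0.83 and -1.46. The number of nuclei that held these UMIs is not given, and the part of mixed nuclei was not tested.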
